A study of Mus musculus with 6 samples.

Results

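Genes of the major histocompatibility complex (MHC) class II pathway were followed in hearts of mice lacking miR-204, a microRNA (KO-TAC), and of wild-type mice (WT-TAC). All animals had undergone transaortic constriction, in which the aorta is tied to raise the pressure against which the heart pumps, and the hearts were taken 5 weeks later. Each genotype had 3 RNA libraries. KO-TAC mice carry the miR-204-/- genotype, WT-TAC mice are unmutated at that locus, and both had the surgery. Strain, sex, age and the number of animals behind a library are not stated by the labels, and p-values measure only the spread between these libraries.

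The genes are H2-Aa, H2-Ab1, H2-Eb1, H2-Ea-ps, H2-DMa, H2-DMb1, H2-DMb2, H2-Ob, Cd74 and Ciita, taken by symbol, and all 10 were among the 24404 rows of the count table. They were chosen from results of KO-TAC against WT-TAC in these same libraries, because class II genes on chromosome 17 differed between the genotypes while Cd74 and Ciita lie on other chromosomes. Their levels and fold changes in that comparison are therefore given as a description, with no test.

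Class II molecules are pairs of an alpha and a beta chain that display peptides from endosomes to CD4+ T cells. In mice H2-Aa and H2-Ab1 encode the alpha and beta chains of the I-A molecule, and the E alpha gene (here H2-Ea-ps) and H2-Eb1 those of the I-E molecule. Cd74 encodes the invariant chain, which occupies the groove of a new class II molecule, H2-DM replaces its remnant with a peptide, and H2-O restrains H2-DM. Ciita encodes the master coactivator of class II transcription. In the heart, class II molecules are known from macrophages, dendritic cells and B cells.

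H2-Ea-ps is annotated in the GRCm38 reference as a polymorphic pseudogene. It is known from mouse genetics that the reference strain C57BL/6 lacks the promoter end of the E alpha gene and makes no I-E molecule, whereas strains with certain other MHC haplotypes transcribe it. The start of the annotated coding sequence shows this difference from the other chains. The first 60 coding bases are given from GENCODE M21 transcripts on GRCm38, with their opening triplet in capitals. They lie on chr17:34344585-34344644 (minus strand) for H2-Ea-ps, chr17:34305954-34306013 (plus) for H2-Eb1, chr17:34287707-34287766 (minus) for H2-Aa and chr17:34263312-34263371 (plus) for H2-Ab1.
H2-Ea-ps: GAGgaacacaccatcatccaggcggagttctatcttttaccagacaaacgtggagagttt
H2-Eb1: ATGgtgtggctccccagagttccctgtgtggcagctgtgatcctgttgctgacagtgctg
H2-Aa: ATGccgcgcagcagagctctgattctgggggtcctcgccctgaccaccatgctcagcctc
H2-Ab1: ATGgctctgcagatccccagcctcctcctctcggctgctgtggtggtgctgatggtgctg
H2-Eb1, H2-Aa and H2-Ab1 open with a start codon and a leader. No start codon is annotated for H2-Ea-ps, whose 684 coding bases in 3 exons begin within the mature chain.

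Class II promoters are known for an X box, bound by the RFX complex, followed at a fixed distance by a Y box, bound by NF-Y, on which CIITA assembles. RefSeq promoter windows of GRCm38.p6, from 250 bases before to 50 after a gene start, were matched for 6 of the 10 genes (H2-Aa, H2-Eb1, H2-Ob, H2-DMb1, H2-DMb2 and H2-DMa). H2-Ab1, H2-Ea-ps, Cd74 and Ciita had no entry. Windows were searched on both strands for the letters CTNNNAAC, an X box core, followed 30 to 40 bases later (from start to start) by ATTGG, the Y box core. The letters were read from these promoters, so the match is a description. Both cores are in capitals below, in sequences on chr17:34287859-34287915 (minus strand) for H2-Aa, chr17:34305765-34305820 (plus) for H2-Eb1, chr17:34238807-34238860 (plus) for H2-Ob, chr17:34153086-34153142 (plus) for H2-DMb1 and chr17:34145115-34145171 (plus) for H2-DMb2.
H2-Aa: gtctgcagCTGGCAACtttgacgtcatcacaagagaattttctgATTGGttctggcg
H2-Eb1: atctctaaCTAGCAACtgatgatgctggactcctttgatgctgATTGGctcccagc
H2-Ob: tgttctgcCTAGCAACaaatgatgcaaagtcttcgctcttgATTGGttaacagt
H2-DMb1: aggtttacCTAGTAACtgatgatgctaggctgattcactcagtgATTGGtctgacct
H2-DMb2: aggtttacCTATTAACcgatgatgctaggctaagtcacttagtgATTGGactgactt
The cores stood 33 bases apart in H2-Ob, 35 in H2-Eb1 and 36 in H2-Aa, H2-DMb1 and H2-DMb2. The spaced pair was present in 5 of the 6 genes and in 155 of all 32851 promoter windows (0.472%). Alone, the X letters were in 41.1% of windows and the Y letters in 37.4%. The 2 windows of H2-DMa held no such pair.

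The libraries held 6411538 to 8571737 counts, and none duplicated another within sampling noise (median chi-square over genes of 3.17 to 7.74 for each pair). Cardiomyocyte markers (Myh6, Actn2, Tnnt2, Tnni3, Ttn and Pln) summed to 115934 to 185520 CPM in KO-TAC and 139203 to 147423 CPM in WT-TAC, the highest sum of any cell type list. CPM are counts divided by library size in units of 1e+06 counts, after TMM scaling. The count column used for KO-TAC replicate 3 carries the sample number of WT-TAC replicate 3, not that of its own label, and was assigned by its library index. The libraries used as KO-TAC replicate 3 and WT-TAC replicate 3 were also the closest of all pairs (3.17), and of all pairs across genotypes their deviations from the group means had the highest correlation (0.277). Mir204 had 0 counts in all 6 libraries, so the deleted gene could not check the labels. Among the labels, the assignment of that library to KO-TAC thus rests on its index. For H2-Ea-ps it had 59 counts, beside 67 and 48 in the other KO-TAC libraries and 0, 0 and 1 in WT-TAC. That gene was chosen from a contrast that took the library as KO-TAC, so it is not an independent check. Values without KO-TAC replicate 3 are given for the class II genes, their ratios to Cd74 and the list medians and sums. The correlations between genes did not leave that library out.

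Both I-A chains and the I-E beta chain were lower in KO-TAC than in WT-TAC, while the E alpha gene was read almost only in KO-TAC. H2-Aa, the I-A alpha chain, had 5.41, 10.3 and 3.99 CPM in KO-TAC and 27.4, 23.1 and 36.0 CPM in WT-TAC. The highest KO-TAC library was below the lowest WT-TAC library. Means were 6.57 ± 3.33 and 28.8 ± 6.60 CPM (SD, n = 3 each), and the log2 fold change of KO-TAC over WT-TAC was −2.12 ± 0.35 (SE).

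H2-Ab1, the I-A beta chain, had 10.1, 19.3 and 6.80 CPM in KO-TAC and 49.1, 22.7 and 43.7 CPM in WT-TAC. The gap between the groups was small, from 19.3 in KO-TAC replicate 2 to 22.7 in WT-TAC replicate 2. Its log2 fold change was −1.66 ± 0.39 (SE), and −2.18 without KO-TAC replicate 2. H2-Eb1, the I-E beta chain, had 9.35, 12.6 and 7.68 CPM in KO-TAC and 30.8, 23.0 and 31.1 CPM in WT-TAC. The spread within each genotype was narrower than for the I-A chains, and the log2 fold change was −1.51 ± 0.28 (SE). For these 3 genes it stayed between −2.61 and −1.36 with any single library left out. Without KO-TAC replicate 3 it was −1.86 for H2-Aa, −1.38 for H2-Ab1 and −1.36 for H2-Eb1.

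H2-Ea-ps went the other way. It had 67, 48 and 59 counts in KO-TAC and 0, 0 and 1 count in WT-TAC, so nearly all its reads came from KO-TAC. The ratio of rates was 178, with an exact 95% interval of 31.6 to 7079 that pools the libraries of a genotype and covers counting error only. In CPM the KO-TAC libraries were at 9.79, 5.83 and 8.72. The fitted log2 fold change ran from 6.49 to 8.91 with a library left out (6.99 without KO-TAC replicate 3 and 8.91 without WT-TAC replicate 3, the one WT-TAC library with a count), and was 6.33 in limma-voom. KO-TAC replicate 2, the highest of its group for H2-Aa, H2-Ab1 and H2-Eb1, was the lowest for H2-Ea-ps. For each 100 H2-Eb1 counts there were 105, 46.2 and 113 H2-Ea-ps counts in KO-TAC and 0, 0 and 0.441 in WT-TAC.

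**Figure D1:**
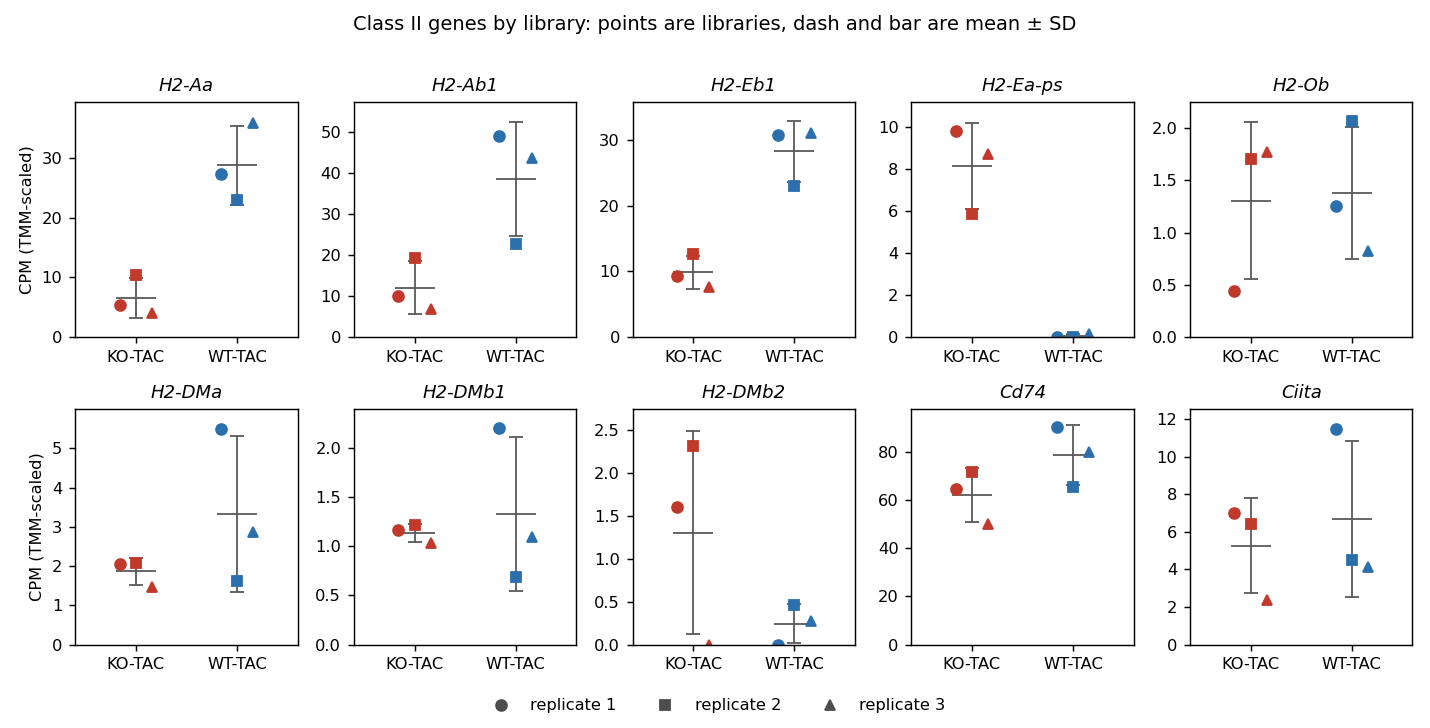
CPM of the 10 class II genes in each library, with KO-TAC left of WT-TAC in every panel, linear axes from 0, and a dash and bar for the mean ± SD (n = 3). H2-Aa, H2-Ab1 and H2-Eb1 are lower and H2-Ea-ps is higher in all KO-TAC libraries, while the other 6 genes overlap between the genotypes.

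Genes of class II loading overlapped between the genotypes. Cd74, the invariant chain gene on chromosome 18, had 64.7, 71.9 and 50.1 CPM in KO-TAC and 90.3, 65.4 and 80.3 CPM in WT-TAC. Its log2 fold change was −0.34 ± 0.20 (SE), with a range of −0.45 to −0.20 when a library was left out (−0.20 without KO-TAC replicate 3). Ciita, on chromosome 16, had 7.01, 6.44 and 2.36 CPM in KO-TAC and 11.5, 4.48 and 4.11 CPM in WT-TAC. WT-TAC replicate 1 was the highest library and KO-TAC replicate 3 the lowest, and the log2 fold change was −0.33 ± 0.53 (SE), turning to 0.29 without WT-TAC replicate 1 and to 0.02 without KO-TAC replicate 3. In the annotation 329 of 9535 exon bases of Ciita are shared with Dexi on the other strand (82 to 180 counts a library), and the labels do not say whether counting used the strand, so reads of the 2 genes may be mixed.

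H2-DMa, the alpha chain of the peptide exchange factor H2-DM, had 14, 17 and 10 counts in KO-TAC and 35, 14 and 21 in WT-TAC. WT-TAC replicate 1 alone stood above the rest, and the log2 fold change was −0.82 ± 0.67 (SE), or −0.26 without that library and −0.68 without KO-TAC replicate 3. Its exons share 360 of 3448 bases with Brd2 on the opposite strand, a gene with 711 to 1108 counts in each library, so its level is uncertain. H2-Ob, the beta chain of the H2-DM antagonist H2-O, had 3, 14 and 12 counts in KO-TAC and 8, 18 and 6 in WT-TAC, with a log2 fold change of −0.09 ± 0.83 (SE) that ran from −0.35 to 0.33 with a library left out (−0.35 without KO-TAC replicate 3).

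The H2-DM beta chain genes did not pass the filter on low counts. H2-DMb1 had 8, 10 and 7 counts in KO-TAC and 14, 6 and 8 in WT-TAC. H2-DMb2 had 11, 19 and 0 counts in KO-TAC and 0, 4 and 2 in WT-TAC. The genotypes overlapped for both genes, and for H2-DMb2 the highest and one of the lowest libraries were KO-TAC. These 2 genes share 369 windows of 50 bases, 22.7% of those in H2-DMb1 transcripts and 21.2% of those in H2-DMb2 transcripts, so their reads can be split between them. Summed, they had 19, 29 and 7 counts in KO-TAC and 14, 10 and 10 in WT-TAC. No other pair among the 10 genes shared a window of 50 bases.

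Of the 10 genes, 8 passed the filter and entered edgeR's quasi-likelihood fit over 12487 genes, and 1 of them, H2-Ea-ps, was called at a Benjamini-Hochberg adjusted p under 0.05, against 0.024% of all tested genes in either direction (0.016% higher and 0.00801% lower in KO-TAC). The genes were chosen from this contrast, so nothing is read from that count. Without KO-TAC replicate 1 or without WT-TAC replicate 1 it was 0 (4 at an unadjusted p under 0.05 each time), and without KO-TAC replicate 3 it was again H2-Ea-ps alone. DESeq2 called H2-Aa, H2-Ab1, H2-Eb1 and H2-Ea-ps, 4 of 10 against 0.0959% of its genes (0.0452% higher and 0.0508% lower). The same 4 were called by edgeR without the filter, against 0.118% (0.0564% higher and 0.0621% lower). With the replicate number as a block, edgeR called H2-Ea-ps, against 0.048%. Limma-voom called 0 of 8, with 4 at an unadjusted p under 0.05, against 0% of all tested genes. Groups did not overlap for 3 genes lower in KO-TAC and 1 higher, against 3.72% and 4.26% of all tested genes (7.98% in either direction).

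Set against the length of the longest coding transcript, the order of the levels differed between the genotypes. In KO-TAC, Cd74 stood at 44.1 ± 7.89 CPM per kilobase, H2-Ab1 at 9.96 ± 5.36, H2-Ea-ps at 7.83 ± 1.98, H2-Eb1 at 5.93 ± 1.51 and H2-Aa at 5.83 ± 2.95 (SD, n = 3). The mean ± SD ranges of these last 4 overlapped. In WT-TAC, Cd74 stood at 55.8 ± 8.87 CPM per kilobase, H2-Ab1 at 31.8 ± 11.5, H2-Aa at 25.5 ± 5.85, H2-Eb1 at 16.95 ± 2.77 and H2-Ea-ps at 0.0441 ± 0.0763. By mean ± SD, the range of H2-Aa overlapped that of H2-Ab1 and, barely, that of H2-Eb1. H2-DMa, H2-DMb1, H2-DMb2, H2-Ob and Ciita were each under 2 CPM per kilobase in both genotypes.

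Counts were also set against Cd74 within each library, which frees them from scaling and relates the chromosome 17 chains to their partner on chromosome 18. In bulk tissue, fewer cells of a type and less RNA per cell cannot be told apart. For each 100 Cd74 counts there were 8.35, 14.4 and 7.96 H2-Aa counts in KO-TAC and 30.3, 35.3 and 44.9 in WT-TAC. H2-Ab1 stood at 15.6, 26.9 and 13.6 in KO-TAC and 54.4, 34.7 and 54.4 in WT-TAC. H2-Eb1 stood at 14.4, 17.6 and 15.3 in KO-TAC and 34.1, 35.1 and 38.7 in WT-TAC, the tightest groups of the 3 chains. None of these ratios overlapped between the genotypes, and on the log2 scale the ratio of the means was −1.85 for H2-Aa, −1.36 for H2-Ab1 and −1.19 for H2-Eb1. Without KO-TAC replicate 3 it was −1.70 for H2-Aa and −1.17 for both H2-Ab1 and H2-Eb1.

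Ciita and H2-DMa relative to Cd74 overlapped between the genotypes. Ciita averaged 8.17 ± 3.13 counts per 100 Cd74 counts in KO-TAC and 8.23 ± 3.98 in WT-TAC, and H2-DMa averaged 2.99 ± 0.149 in KO-TAC and 4.05 ± 1.86 in WT-TAC (SD, n = 3 each). Among the chains themselves, there were 173, 122 and 193 H2-Eb1 counts per 100 H2-Aa counts in KO-TAC, against 113, 99.5 and 86.3 in WT-TAC, without overlap. H2-Ab1 per 100 H2-Aa counts overlapped, with 186, 187 and 170 in KO-TAC and 179, 98.5 and 121 in WT-TAC.

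**Figure D2:**
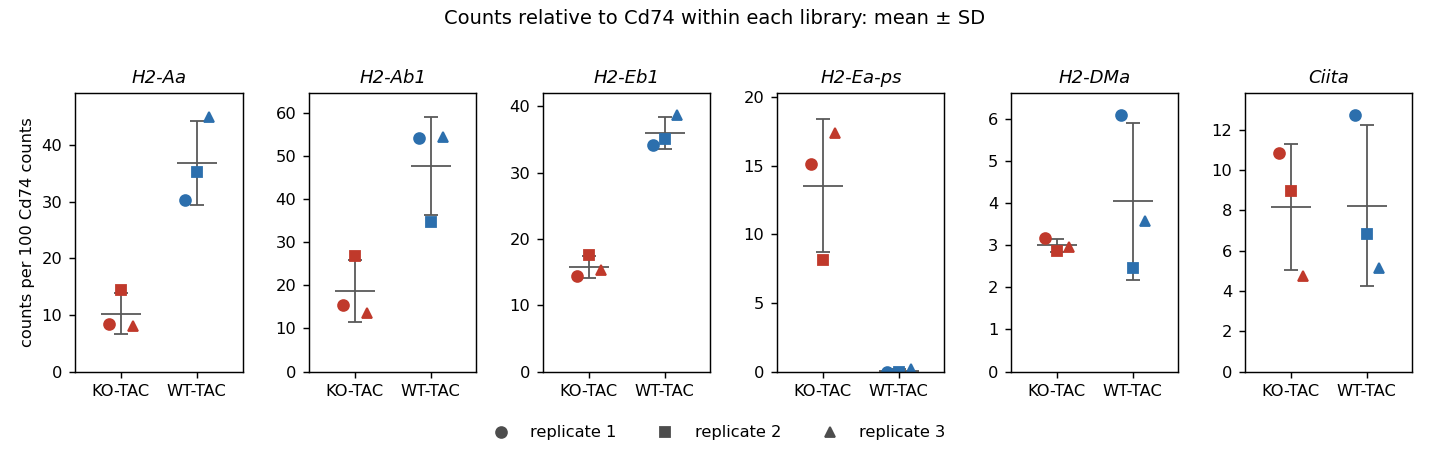
Counts per 100 Cd74 counts within each library, with KO-TAC left of WT-TAC, linear axes from 0, and the mean ± SD (n = 3). H2-Aa, H2-Ab1 and H2-Eb1 are lower relative to Cd74 in every KO-TAC library, H2-Ea-ps is near 0 in WT-TAC, and H2-DMa and Ciita overlap.

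The class II genes lie on chromosome 17 of GRCm38 from H2-DMa (34119541 to 34139101, plus strand) to H2-Ea-ps (34341959 to 34344645, minus strand). H2-Ab1 runs from 34257689 to 34269419 (plus), H2-Aa from 34282744 to 34287823 (minus) and H2-Eb1 from 34305867 to 34316674 (plus). The 4 class II genes whose groups did not overlap are thus next to each other but for H2-Eb2, which had 0 counts in every library. Neighbours on both sides were read from a list of 25 genes, of which 22 were tested. Their median log2 fold change was −0.04, with a range of −0.46 to 0.65, beside 0.001 for all tested genes. None was called by edgeR, DESeq2 or limma-voom, and 2 had an unadjusted p under 0.05 in edgeR, both higher in KO-TAC. These are Vps52 at 0.61 ± 0.19 and Pfdn6 at 0.65 ± 0.28 (SE), named after their values were seen. Their groups did not overlap in CPM. Nor did those of Rxrb, at 0.35 ± 0.23 (SE), also named after its values were seen. Of all tested genes, 4.26% were higher in KO-TAC without overlap.

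Tap1 and Tap2, the peptide transporter of class I loading, and Psmb8 and Psmb9, immunoproteasome subunits, lie between H2-DMb1 and H2-Ob and are named for that place. Their log2 fold changes were −0.26 ± 0.42, −0.30 ± 0.26, −0.08 ± 0.33 and −0.20 ± 0.74 (SE). The highest of the neighbours by CPM, Tnxb (tenascin X), Brd2 (a bromodomain protein) and Tapbp (tapasin of class I loading), stood at 0.30 ± 0.25, 0.14 ± 0.18 and −0.04 ± 0.20 (SE). H2-Oa, the H2-O alpha chain, had 1, 0 and 4 counts in KO-TAC and 0, 0 and 2 in WT-TAC. Btnl2, a butyrophilin-like gene beside H2-Ea-ps, had 0 counts in every KO-TAC library and 7, 10 and 0 in WT-TAC.

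**Figure D3:**
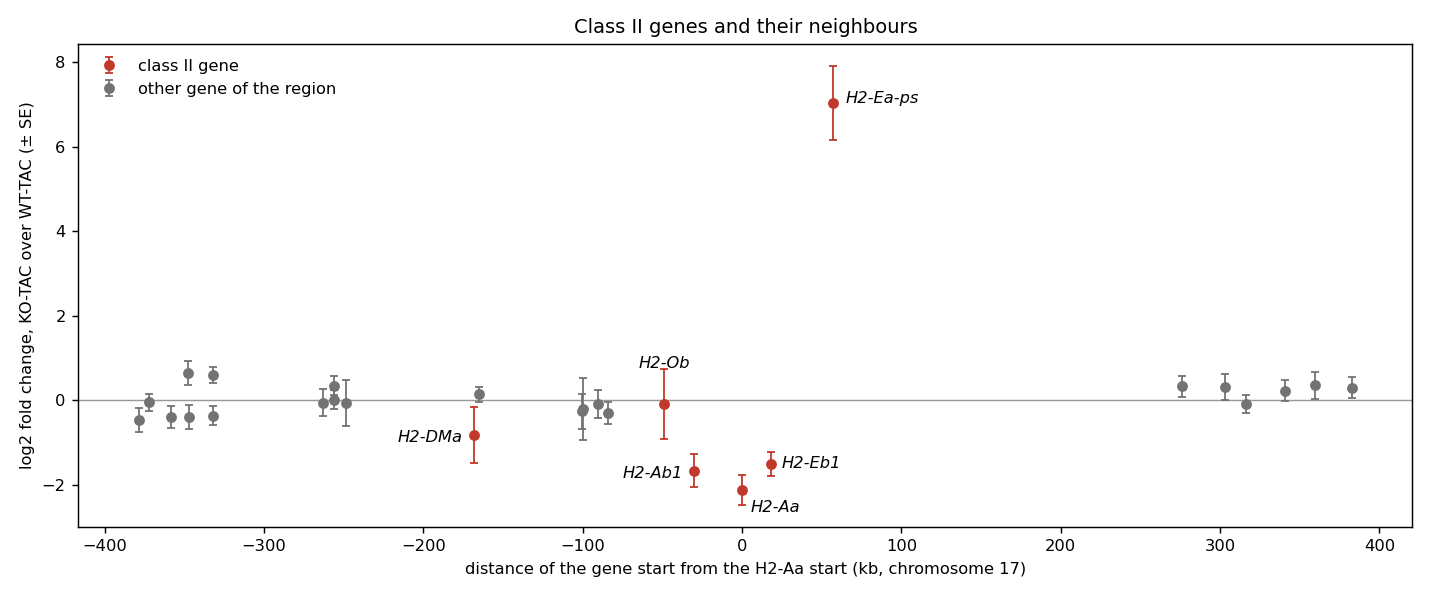
Log2 fold change of KO-TAC over WT-TAC (± SE) of tested genes, against the distance of the gene start from that of H2-Aa in kilobases. H2-Ab1, H2-Aa and H2-Eb1 lie between −1.51 and −2.12, H2-DMa at −0.82, H2-Ob at −0.09 and the 22 neighbours between −0.46 and 0.65. The fitted value of H2-Ea-ps (7.04) depends on the prior count, since WT-TAC held 1 count.

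Class II promoters are driven by RFX, NF-Y and CREB, and Ciita itself by factors such as IRF1, IRF4, IRF8 and PU.1. All 11 genes of these factors were tested and 0 were called, 4 higher and 7 lower in KO-TAC, with −0.04 as their median log2 fold change. The 3 highest were Nfyc (0.02 ± 0.20), Creb1 (−0.22 ± 0.20) and Rfxank (0.41 ± 0.35). Rfx5, the DNA-binding RFX subunit, had 7.16, 5.71 and 10.6 CPM in KO-TAC and 13.8, 11.8 and 11.6 CPM in WT-TAC, without overlap. Its log2 fold change was −0.67 ± 0.34 with an adjusted p of 0.999 in edgeR, and it was named after its values were seen.

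Interferon gamma, the main inducer of Ciita, was represented by 12 tested genes of its signalling, 2 higher and 10 lower in KO-TAC, with 0 called. Their median was −0.26 on the log2 scale. Jak1, a kinase of the receptor, stood at 0.05 ± 0.17, the receptor chains Ifngr2 and Ifngr1 at −0.34 ± 0.23 and 0.00 ± 0.22 (SE). Ifng itself had reads in 1 WT-TAC library only. With 1 library left out the median stayed below 0, between −0.40 and −0.10.

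Endosomal proteases and their partners had 11 genes tested, 8 higher and 3 lower in KO-TAC. Their median was 0.23 on the log2 scale, or 0.06 without KO-TAC replicate 1, and 0 were called. The highest by CPM were Ctsd, an aspartic protease, at 0.23 ± 0.19, Ctsb, a cysteine protease, at 0.14 ± 0.18 and Cst3, a cysteine protease inhibitor, at 0.29 ± 0.19. Ctss, which trims the invariant chain in antigen-presenting cells, had 26.2, 23.6 and 17.4 CPM in KO-TAC and 37.3, 21.3 and 22.2 CPM in WT-TAC, a log2 fold change of −0.26 ± 0.28 with overlap. Ctsl, which has that role in the mouse thymus, was at 0.65 ± 0.21, with an unadjusted p of 0.00771 and an adjusted p of 0.999 in edgeR. It was named after its values were seen.

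Tetraspanins and other genes of class II traffic had 7 tested and 0 called, with a median of 0.24 that ran from −0.35 to 0.39 with a library left out, the lowest being without KO-TAC replicate 1. Cd81 was at 0.28 ± 0.18, Cd63 at 0.43 ± 0.21 and Cd9 at −0.25 ± 0.22. The co-stimulation list also holds the receptor gene Cd40 and genes of inhibitory ligands such as Cd274. Of its genes, 4 were tested and 0 called. Their median of 0.50 was 0.17 without WT-TAC replicate 1, 0.78 without WT-TAC replicate 3 and 0.09 at a minimum count of 30. Cd40, the receptor through which T cells license antigen-presenting cells, had 5.41, 3.16 and 4.88 CPM in KO-TAC and 3.15, 1.26 and 1.64 CPM in WT-TAC. The lowest KO-TAC library was just above the highest WT-TAC library, and the log2 fold change was 1.16 ± 0.60 with an adjusted p of 0.999 in edgeR. Cd274 stood at 0.41 ± 0.42 and Icosl at −0.23 ± 0.31.

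Summed markers of macrophages and of leukocytes as a whole overlapped between the genotypes. All 12 macrophage markers were tested, 6 higher and 6 lower in KO-TAC. Their median was 0.00 on the log2 scale, or −0.34 without KO-TAC replicate 1, and their summed level was 268 to 483 CPM in KO-TAC and 324 to 368 in WT-TAC. Lyz2, Mrc1 and Csf1r, the highest, were at 0.08 ± 0.29, 0.22 ± 0.24 and 0.01 ± 0.22. The 9 leukocyte markers had a median of −0.20, which ran from −0.51 to 0.07 with a library left out, and summed to 61.5 to 120 CPM in KO-TAC and 83.1 to 161 in WT-TAC. Ptprc, which encodes CD45, was at −0.19 ± 0.33 and Laptm5 at −0.68 ± 0.33 (SE). Cd74 itself averaged 102 ± 25.3 counts per 100 counts of 6 leukocyte markers in KO-TAC and 105 ± 34.3 in WT-TAC (SD, n = 3 each). Those 6 were Ptprc, Itgb2, Laptm5, Coro1a, Tyrobp and Fcer1g. The listed markers left out of that ratio were Cd52 (0.74 ± 0.82), Rac2 (0.26 ± 0.63) and Ctss (−0.26 ± 0.28, SE).

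One chemokine receptor was low in the same libraries as the chains. Ccr2, the chemokine receptor of recruited monocytes and the macrophages they give rise to, had 1.75, 1.94 and 1.77 CPM in KO-TAC and 9.75, 4.13 and 6.85 CPM in WT-TAC, without overlap. Its log2 fold change was −1.91 ± 0.53, with an unadjusted p of 0.00294 and an adjusted p of 0.999 in edgeR, and it ran from −2.17 to −1.58 with a library left out. It was the sole tested gene of 6 monocyte markers. The list summed to 2.55 to 4.97 CPM in KO-TAC and 5.74 to 11.5 in WT-TAC, Chil3 was at 0 in all libraries, and Ly6c2 had reads in 1 KO-TAC library only. The part of these cells in the chain levels was not tested.

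Dendritic cell markers were sparse, with 2 of 10 tested and a summed level of 23.5 to 30.6 CPM in KO-TAC and 21.6 to 26.4 in WT-TAC. Most of that sum was Zbtb46, a transcription factor of dendritic and also endothelial cells, with 22.8, 26.9 and 20.5 CPM in KO-TAC and 15.4, 18.9 and 16.3 CPM in WT-TAC, and a log2 fold change of 0.47 ± 0.25. Itgax, which encodes CD11c, had 0.438, 0.851 and 0 CPM in KO-TAC and 5.03, 1.49 and 0.959 CPM in WT-TAC, without overlap, and did not pass the filter. Clec10a was at −0.30 ± 0.70. Their part in the chain levels was not tested.

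B cell markers summed to 7.09 to 13.0 CPM in KO-TAC and 3.42 to 12.1 in WT-TAC, with none of 8 in the table passing the filter. Ms4a1, which encodes CD20, had 6, 14 and 18 counts in KO-TAC and 5, 2 and 3 in WT-TAC. Pax5, a B cell transcription factor, had 5, 12 and 6 counts in KO-TAC and 0, 3 and 0 in WT-TAC, and both were higher in KO-TAC without overlap in CPM. Cd22, a B cell lectin, had 23, 23 and 5 counts in KO-TAC and 7, 0 and 4 in WT-TAC, with overlap in CPM. Ms4a1 and Pax5 were named after their values were seen, and the part of B cells in the class II levels was not tested. T cell markers summed to 0.972 to 2.07 CPM in KO-TAC and 2.47 to 3.79 in WT-TAC, again with none of 7 passing. These sums rest on few counts. Cd3d had 21 counts in WT-TAC replicate 2 and 0 in every other library. Cd3g had 0, 7 and 4 counts in KO-TAC and 4, 1 and 2 in WT-TAC. Cd2 had 3, 0 and 4 counts in KO-TAC and 9, 6 and 8 in WT-TAC. Endothelial markers, 6 tested, had a median of 0.28, or 0.02 without KO-TAC replicate 1, among them Kdr at 0.56 ± 0.20 (unadjusted p = 0.0134, adjusted p = 0.999 in edgeR), Cdh5 at 0.33 ± 0.21 and Pecam1 at 0.14 ± 0.20. Over all lists, 102 genes other than the members were tested. Of these edgeR called 0, with 5 at an unadjusted p under 0.05, and limma-voom 0, with 6. DESeq2 tested 138 and called 0, with 7. Without KO-TAC replicate 3, edgeR tested 108 and called 0, with 13.

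Without KO-TAC replicate 3 the median log2 fold change was −0.06 for class II transcription, −0.21 for interferon gamma signalling, 0.32 for endosomal processing, 0.39 for traffic and 0.54 for co-stimulation. It was 0.07 for leukocyte, 0.10 for macrophage and 0.37 for endothelial markers, −0.09 for cardiomyocyte markers and 0.16 for the neighbours on chromosome 17. The leukocyte and cardiomyocyte medians and that of the neighbours changed sign. The other KO-TAC libraries had macrophage sums of 483 and 299 CPM, leukocyte sums of 120 and 92.6 CPM and cardiomyocyte sums of 115934 and 148503 CPM.

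**Figure D4:**
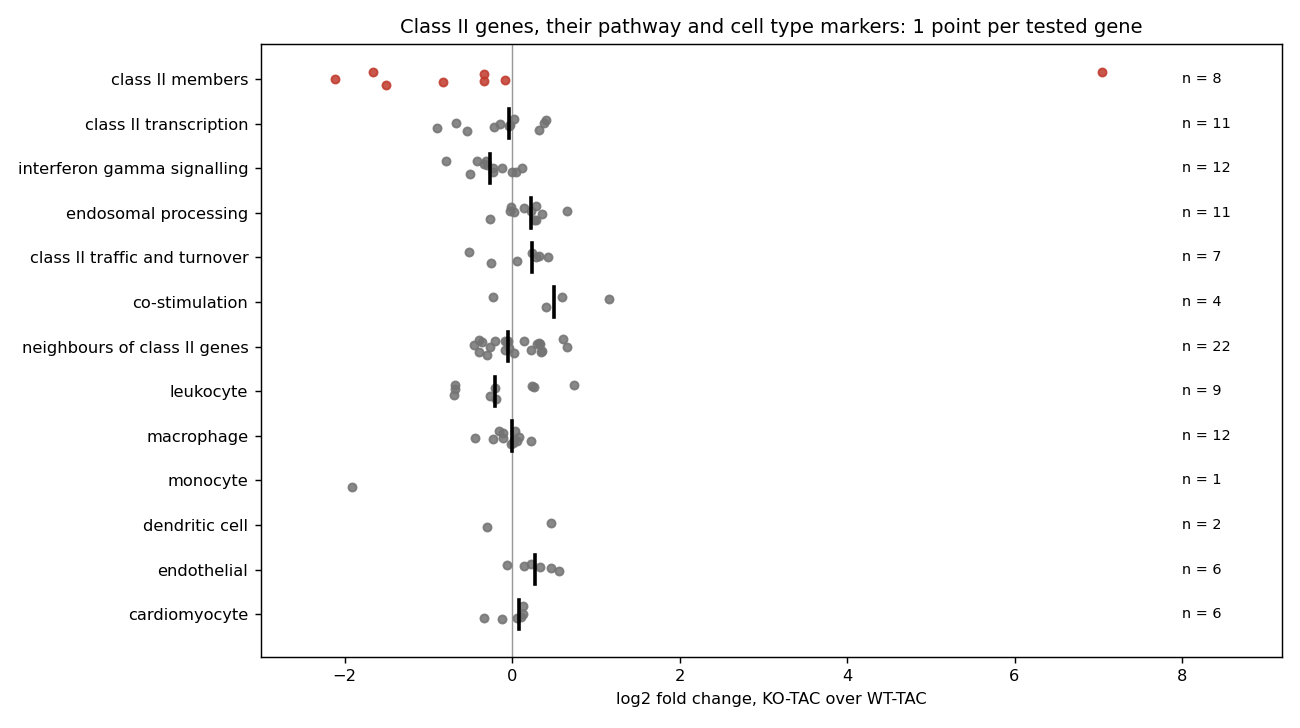
Log2 fold change of KO-TAC over WT-TAC for each tested class II gene (red) and each tested gene of the pathway and cell type lists (grey), with a bar at the list's median where 3 or more genes were tested. H2-Aa, H2-Ab1 and H2-Eb1 are at −2.12, −1.66 and −1.51 and H2-Ea-ps at 7.04, whereas the list medians run from −0.26 to 0.50. The single monocyte gene is Ccr2 at −1.91.

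Genes whose log2 CPM followed that of a class II gene over the 6 libraries were ranked by Pearson's r among 11935 tested genes of at least 1 log2 CPM, as a description. With so many genes and 6 libraries that share depth and genotype, values close to 1 occur readily. With the class II genes left out of the ranking, nearest to Cd74 were Clec4a1 (0.983), a lectin receptor of myeloid cells, Them4 (0.983), Hmgn3 (0.982), Rgcc (0.980) and Sh3bp5l (0.978). By the same ranking, nearest to H2-Aa were Tbrg4 (0.992), Sh3kbp1 (0.989), the class I gene H2-K1 (0.987), Kxd1 (0.983) and Wdfy1 (0.982). Of the class II genes, H2-Eb1 (0.991) and H2-Ab1 (0.959) followed H2-Aa more closely than Cd74 (0.808), H2-DMa (0.60) and Ciita (0.351) did, while Cd74 was nearest to H2-Ab1 (0.931).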

How the data were processed

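RNA from mouse hearts was measured in 6 libraries, 3 KO-TAC and 3 WT-TAC. The deposited table holds the authors' raw counts by gene symbol, not normalized. Among tools, FastQC, HISAT2 2.1.0, Subread and edgeR appear in the submitters' processing notes, and mm10 and GRCm38 as builds. Class II chains are highly polymorphic between mouse strains, and how allele differences from the reference affect alignment and counting was not tested.

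Counts were fitted with edgeR 4.0.16 in R 4.3.3 (filterByExpr with a minimum count of 10, TMM, robust quasi-likelihood, no covariate), and adjusted over all tested genes. SE was obtained by dividing the absolute log2 fold change by the root of the F statistic. Log2 CPM used a prior count of 2. Positions are from GENCODE M21. Also run were scaling by RLE, by upper quartile or not at all, fits with no filter or with a minimum count of 30, DESeq2 1.42.0, limma-voom (limma 3.58.1), a replicate block and leaving out each library. The members and lists were chosen with earlier results of these data known. Named genes are the members, the called genes and the 3 highest by CPM of each list, and the 5 nearest to Cd74 and H2-Aa. March1, March8, Hsd17b8, Ighm and Trac were not analysed here. Depth was 6411538 to 8571737 counts, and the common biological coefficient of variation was 0.286.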

Additional observations from a re-analysis of the deposited data

How the results depend on the processing

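Over all genes, 2 were called higher and 1 lower in KO-TAC by edgeR. The calls by DESeq2 were 8 higher and 9 lower, edgeR without the filter on low counts 10 and 11, and limma-voom 0 and 0 (181 and 195 at an unadjusted p under 0.05). With a library left out the counts ran from 0 to 3 higher and from 0 to 5 lower. The correlations of deviations from the group means were 0.155, 0.045 and 0.277 for same-numbered libraries and −0.231 to 0.137 for the others. KO-TAC replicate 2 was nearest to WT-TAC replicate 1. So few pairs cannot decide whether the replicate numbers of the labels pair the libraries. The fit with the replicate block called 3 higher and 3 lower, H2-Ea-ps among them. The log2 ratio of the mean H2-Eb1 share, −1.19 per Cd74 count, was −1.46 per count of macrophage markers. With a library left out these ratios ran from −2.17 to −1.68 for H2-Aa, −1.72 to −1.17 for H2-Ab1 and −1.27 to −1.13 for H2-Eb1. H2-Aa, H2-Ab1, H2-Eb1, H2-DMa and Cd74 kept their sign under each alternative in which they were fitted, and H2-Ob and Ciita changed sign under 2 alternatives each. The causes were not tested. Depth limits H2-DMa, H2-Ob, H2-DMb1 and H2-DMb2, which summed to 41, 29, 25 and 30 counts in KO-TAC and 70, 32, 28 and 6 in WT-TAC.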
